A study of Mus musculus with 22 samples.

Results

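Translation initiation factors are the proteins that bring the ribosome, the initiator tRNA and an mRNA together at the start codon. Their transcripts were followed in the hippocampus of TgproNGF#3 mice and wild type (WT) mice aged 1, 3 and 12 months. A probe of the array was taken as a member when the RefSeq mRNA it is annotated to belongs to a gene whose symbol begins with Eif1 to Eif6. This gave 78 probes of 56 genes, out of 55681 non-control probes of the array, of which 26391 were named through such an mRNA. No protein-coding gene of this name pattern lacked a probe. A single probe stood for 37 genes, and 19 genes had 2 or more.

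TgproNGF#3 mice carry a pre-proNGF cDNA mutated at the furin site, followed by an IRES and EGFP, under the Thy1.2 promoter, which is active in neurons. All of them come from 1 founder line on the C57Bl/6xDBA/2 background, the background of the WT mice. For each array, total RNA was isolated from the right hippocampus of 1 mouse. There were 4 TgproNGF#3 and 4 WT males at 1 month, 4 and 4 males at 3 months, and 3 and 3 females at 12 months. No mouse was treated. Each age was hybridised on a slide of its own, so the effects of age, of sex and of the slide cannot be told apart. Bulk tissue was measured, so fewer cells of a type and less RNA per cell cannot be told apart either.

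As background, initiation starts when eIF2, a GTP-binding complex of an alpha (Eif2s1), a beta (Eif2s2) and a gamma subunit (Eif2s3x or Eif2s3y), delivers the initiator tRNA to the small ribosomal subunit. Kinases that respond to heme shortage, double-stranded RNA, unfolded proteins and amino acid shortage (Eif2ak1 to Eif2ak4) phosphorylate the alpha subunit, which then blocks its own exchange factor eIF2B and lowers protein synthesis, while some stress mRNAs such as Atf4 are translated more. The eIF4 group binds the mRNA cap and unwinds the leader, eIF3 holds the small subunit to the mRNA, eIF1 and eIF5 control start codon choice, and eIF6 keeps the large subunit apart. In the hippocampus, phosphorylation of eIF2 alpha is known for its part in long-lasting synaptic plasticity and memory. The arrays measure transcripts, so phosphorylation was not seen here.

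The promoters of the 4 genes on whose probes most of the text below turns are shown first, as 150 bases before the annotated start. They come from RefSeq on build GRCm38.p6, 5′ to 3′ on the strand of the gene. Capitals mark matches to the motifs searched, GCATGCGC (the NRF1 core), CCAAT (bound by NF-Y), CCGGAAG (bound by ETS factors), CACGTG (an E-box), TATAAA (a core promoter element), TGATGNAA (an amino acid response element) and the interferon response element, each read on both strands.
Eif2s1, chr12:78861922-78862071, plus strand: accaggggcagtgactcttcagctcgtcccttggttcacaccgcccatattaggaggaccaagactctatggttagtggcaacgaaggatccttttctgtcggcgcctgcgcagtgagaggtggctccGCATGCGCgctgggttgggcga
Eif2ak2, chr17:78882573-78882722, minus strand: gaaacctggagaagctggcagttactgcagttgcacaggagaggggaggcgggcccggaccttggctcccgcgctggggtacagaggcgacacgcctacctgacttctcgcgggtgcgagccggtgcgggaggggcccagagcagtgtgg
Eif4b, chr15:102073623-102073772, plus strand: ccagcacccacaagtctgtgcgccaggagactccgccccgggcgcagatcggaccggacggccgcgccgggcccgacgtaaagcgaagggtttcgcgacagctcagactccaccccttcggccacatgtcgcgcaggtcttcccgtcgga
Eif4a1, chr11:69672424-69672573, minus strand: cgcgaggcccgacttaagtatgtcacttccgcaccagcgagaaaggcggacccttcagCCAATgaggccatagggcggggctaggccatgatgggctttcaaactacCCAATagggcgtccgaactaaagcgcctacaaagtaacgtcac

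The Eif2s1 stretch holds 1 NRF1 core, which begins at -22 from the start, and the Eif4a1 stretch holds 2 matches to CCAAT, at -92 and -43 from the start. No searched motif lies in the printed stretches of Eif2ak2 and Eif4b. Windows of 300 bases, from 250 before to 50 after the start, were found for 44 of the 56 genes and numbered 57. CCGGAAG was in 33.3% of these windows against 8.86% of 32851 windows of all genes, and CACGTG in 21.1% against 7.15%. GCATGCGC was in 5.26% of the members' windows (those of Eif2s1, Eif3k and Eif4h) against 2.71% of all windows. CCAAT was in 28.1% against 37.4%, TATAAA in 7.02% against 13.6%, TGATGNAA in 1.75% (Eif2s3x) against 3.97%, and the interferon response letters in 7.02% (Eif2s1, Eif2s3x, Eif2ak2 and Eif3a) against 3.44%. In Eif2ak2 the interferon response letters begin 19 bases after the start. These are matches of letters and were set against no binding data.

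Levels below are log2 signals relative to the 75th percentile of each array, so 0 is that percentile, and a difference of 1 is a doubling. The signal of a probe depends on the probe as well as on its transcript, so dimmer and brighter describe probes below and say nothing of one transcript's amount against another's. A probe was called when TgproNGF#3 and WT differed at an unadjusted p under 0.05 (limma) and by more than 2-fold, and adjusted p-values are by the Benjamini-Hochberg method over all probes tested at that age. A test needed 2 or more values on either side. Of the 78 members, 75 were well above background on every array at 1 month, 74 at 3 months and 75 at 12 months. On average 17 of the 19 eIF3 probes and 6 of the 7 eIF1 probes lay above the 75th percentile of the array, and none of the 4 kinase probes did. Not tested were both probes of Eif4e1b, a cap-binding protein known from oocytes, at every age, and the probe of the Y-linked Eif2s3y at 12 months.

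Several facts of the whole series bear on these results. The share of spots well above background was 69.76% to 80.27% per array at 1 month, 57.6% to 64.7% at 3 months and 60.7% to 67.68% at 12 months, and no spot was saturated. At 3 months the WT arrays had 62.94% to 64.14%, and TgproNGF#3 replicate 4 had the lowest share, 57.6%. That array also read lowest at that age on the Eif2s1 and Eif4b probes called below (-5.74 and -5.90). Without it these probes differed by -1.06 and -1.03. Its part in the other 3-month results was not tested. A probe of a non-coding RNA that no table used here names (A_55_P2100241) read -0.10 to 1.90 in the 4 TgproNGF#3 mice and 4.19 to 7.27 in the 4 WT mice at 3 months. It thus differed by -5.11 ± 0.70 (SE, limma, adjusted p = 0.00423) at that age, with ranges that overlapped at 1 and 12 months. Its part in the 3-month results was not tested. Whether it reads Rn18s, the ribosomal RNA listed as the measure of RNA composition, for which no probe could be named, could not be settled. Markers of the hippocampus were present, and all 9 excitatory neuron genes were tested at each age, with a summed level of 4.01 to 4.53 in TgproNGF#3 and 4.40 to 4.63 in WT mice at 3 months. At that age 7 of the 10 tested excitatory neuron probes were lower in TgproNGF#3 mice and 3 had an adjusted p under 0.05 (limma), one each of Camk2a (-1.57 ± 0.38, called), Fibcd1 (-0.93 ± 0.16) and Grik4 (-0.64 ± 0.17), while the other Camk2a probe differed by -0.47 ± 0.27. One astrocyte probe (Aqp4, 1.04 ± 0.31) was called higher and one oligodendrocyte probe (Mbp, -1.11 ± 0.33) lower at 3 months, each with an adjusted p above 0.05. At 12 months the excitatory neuron marker C1ql2 was called lower (-1.05 ± 0.44, adjusted p = 0.549, limma). Of the 10 tested excitatory neuron probes 6 had higher and 4 lower means at that age, with a median difference of 0.06. All 7 interneuron probes had higher means with none called, a median difference of 0.48 and sums of 5.25 to 5.62 against 4.53 to 5.29. At that age 58 of the 75 members, and 17426 of the 34064 probes of the array, had higher means. All 8 probes of the 6 choroid plexus markers were lower in TgproNGF#3 mice at each age and none was called, with sums at 12 months of 3.13 to 7.07 against 3.31 to 7.62. Of the 8 leptomeningeal markers, all 8 had higher means and none was called at 3 months, with sums of 2.54 to 3.33 against 2.28 to 3.01, and 7 had lower means and 5 were called lower at 12 months, with sums of 2.63 to 3.38 against 2.79 to 3.35. The part of these cells in the members' results was not tested.

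Few members passed the 2-fold call at any age. At 1 month 0 of 76 tested members were called by limma, where 0.242% of all probes on the array were called higher and 0.328% lower, and 1 member, with a higher level, had an unadjusted p under 0.05, as did 2.15% (higher) and 1.31% (lower) of all probes. That direction depended on the scaling, since 1 member was higher and 4 lower with the percentile over all spots (2.06% and 2.7% of all probes), and 1 higher and 3 lower with the authors' values (2.48% and 3.02%) or with dim spots kept (1.75% and 1.48%). At 3 months no member was called higher, against 0.643% of all probes, and 2 were called lower, Eif2s1 and Eif4b, against 6.12%. At 12 months 1 of 75 was called higher, Eif2s1 again, against 0.311% of all probes, and none lower, against 0.992%. At an adjusted p under 0.05, 2 members were higher and 1 lower at 3 months, with a background of 1.57% and 6.85%, and none passed at 1 or 12 months. That count of 3 was unstable. It was 10 with scaling on the percentile over all spots (where 11.5% of all probes passed), 11 with the authors' values (12.1% of all probes), 7 in 1 fit of all arrays, 0 with the slide row as a block and 0 to 4 when each mouse was left out.

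By the unadjusted test 19 of 76 members (25%) had a p under 0.05 at 3 months, and so did 27.2% of all probes. By direction, 11 members (14.5%) were higher and 8 (10.5%) lower, where 7.48% of all probes were higher and 19.7% lower. The members' split thus had the opposite balance to the array's, a difference that was not tested. Levels differed too, since 7 of the 76 members but 14989 of the 33593 probes of the array had a mean level under -3. Array probes in that range had a median log2 fold change of -0.21, and those above 1 had -0.07. The part of level in the split was not tested. Scaled on the percentile over all spots, 18 members were higher and 5 lower, beside 14.3% and 14.8% of all probes. TgproNGF#3 mice all lay on one side of the WT mice for 3 members at 1 month (3.95%, background 3.32%), 16 at 3 months (21.1%, background 20.3%) and 12 at 12 months (16%, background 15.5%). Of these, 2 lay above and 1 below at 1 month (background 2% and 1.33%), 11 above and 5 below at 3 months (background 5.78% and 14.6%), and 11 above and 1 below at 12 months (background 7.42% and 8.12%). The median log2 fold change of the members was 0.06, 0.03 and 0.11 at the 3 ages in order, beside 0.07, -0.12 and 0.01 over all probes tested. Within 0.5 of 0 on either side lay 97.4%, 88.2% and 93.3% of the members at 1, 3 and 12 months, and 92%, 74.9% and 89.4% of all probes.

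**Figure D1:**
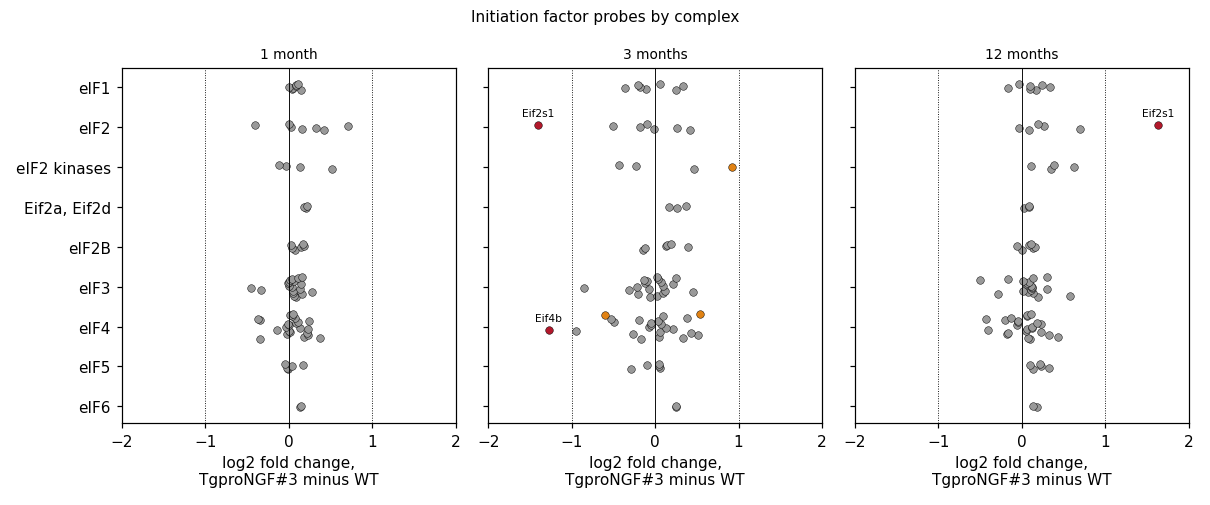
Log2 fold change of TgproNGF#3 over WT (horizontal axis) for each tested initiation factor probe, by complex (vertical axis), at 1, 3 and 12 months. Red points were called, orange points had an adjusted p under 0.05 with a smaller fold change, grey points neither, and dotted lines mark 2-fold. A single Eif2s1 probe lies beyond 2-fold at 3 months (-1.40) and, with the opposite sign, at 12 months (1.64).

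Eif2s1, the alpha subunit that the stress kinases phosphorylate, is represented by 2 probes that read differently. On the dimmer one, A_55_P2184811, the 4 TgproNGF#3 mice at 3 months read -5.00, -4.20, -3.98 and -5.74 and the 4 WT mice -2.77, -3.44, -3.96 and -3.15. All TgproNGF#3 values were below all WT values, but the groups were separated by only the gap between -3.98 and -3.96. The difference was -1.40 ± 0.39 (SE), or 37.9% of the WT signal, with an unadjusted p of 0.00574 and an adjusted p of 0.0581 by limma. The exact two-sided permutation p was 0.0286, the smallest that 4 against 4 allows. Leaving out each mouse in turn gave -1.65 to -1.06, and the probe was called each time. Within the rows of the slide it was -1.49 in row 1 and -1.31 in row 2.

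At 12 months the same probe had the opposite sign. The 3 TgproNGF#3 mice read -0.90, -0.91 and -0.71, and the WT mice -3.24, -3.28 and -0.92. Replicates 1 and 2 of WT were thus far below the TgproNGF#3 mice, and replicate 3 was beside them. The fitted difference was 1.64 ± 0.58, with an unadjusted p of 0.0249 and an adjusted p of 0.549 by limma, and an exact permutation p of 0.1, the smallest that 3 against 3 allows. The slide of this age has 2 rows of arrays, and WT replicates 1 and 2 lay in row 1 while WT replicate 3 and all 3 TgproNGF#3 arrays lay in row 2. Within row 2 the difference was 0.08, and with the row as a block in limma it was 0.08 with an unadjusted p of 0.691. The difference between the WT array of row 2 and the mean of those of row 1 was 2.34, and this was the only one of 75 members with values on every WT array for which it passed 1, as it did for 2.97% of all probes. Row and genotype are almost the same split at this age, and what the row stands for was not tested. WT replicate 3 also lay among or beside the TgproNGF#3 mice on a probe each of Eif2s2, Eif2ak2 and Eif4g3, described below. The same held for probes A_55_P2016387 and A_51_P341025 of Eif3k. On the 5 leptomeningeal probes called lower (Aldh1a2, Col1a1, Col3a1, Slc22a6 and Slc6a13) all 3 WT mice were above all 3 TgproNGF#3 mice, with differences of -1.80 to -1.27. These probes were picked by their values, which placed WT replicate 3 with the other WT mice. On the leptomeningeal probes of Dcn, Lum and Ogn the groups overlapped.

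The call at 12 months rested on single mice. Without WT replicate 3 the difference was 2.42 (adjusted p = 0.00529, limma). Without WT replicate 1 it was 1.26, without WT replicate 2 it was 1.24, and without TgproNGF#3 replicate 3 it was 1.57, and none of these was called (limma, unadjusted p of 0.079, 0.0712 and 0.0646).

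At 1 month this probe read -3.10, -3.65, -3.09 and -2.96 in TgproNGF#3 and -2.39, -3.30, -2.33 and -3.17 in WT mice. The groups overlapped, and the difference was -0.40 ± 0.27 (unadjusted p = 0.169, adjusted p = 1, limma). Across all 22 mice the level of this probe ran from -5.74 to -0.71.

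The brighter Eif2s1 probe, A_55_P2184816, showed no called difference at any age. At 3 months it read 0.68, 0.38, 0.25 and 0.60 in TgproNGF#3 and 0.60, 0.50, 0.52 and 0.67 in WT mice. Its difference of -0.09 ± 0.14 (adjusted p = 0.706, limma) was within the spread of the mice. At 12 months it read 0.57, 0.48 and 0.56 in TgproNGF#3 against 0.34, 0.32 and 0.38 in WT mice, which do not overlap, with a difference of 0.19 ± 0.12 (adjusted p = 0.605). At 1 month the difference was 0.00 ± 0.23 (adjusted p = 1). On this probe WT replicate 3 at 12 months, at 0.38, was beside the other WT mice.

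**Figure D2:**
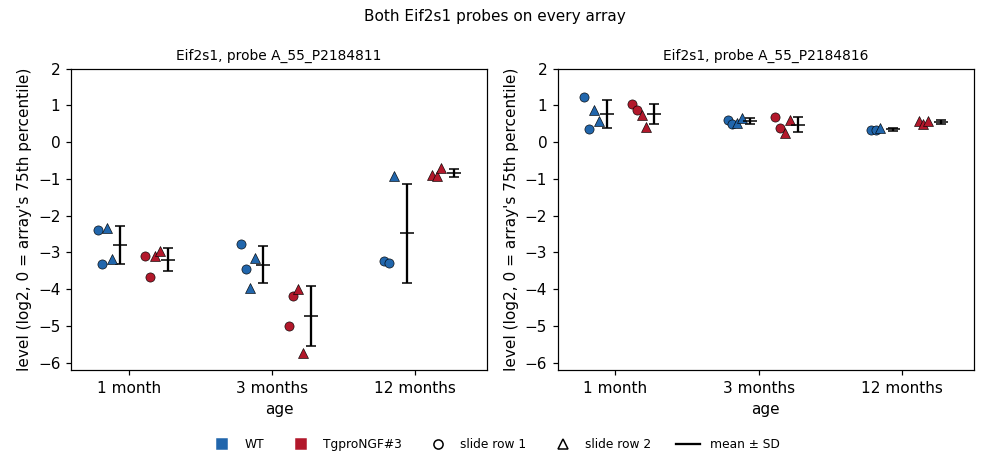
Level of the 2 Eif2s1 probes (log2, 0 is the array's 75th percentile) in every mouse at each age, with WT in blue and TgproNGF#3 in red, circles for arrays in row 1 of the slide and triangles for row 2, and black bars for the mean ± SD. On the dimmer probe at 12 months the 4 arrays of row 2 lie between -0.92 and -0.71 and the 2 arrays of row 1 near -3.24 and -3.28, while the brighter probe stays between 0.25 and 1.23 throughout.

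The change of sign between 3 and 12 months was tested as a difference of differences in 1 fit of all 22 arrays. Of the 75 members tested, 2 had an adjusted p under 0.05, beside 4.52% of all probes. On the dimmer Eif2s1 probe the genotype difference was 3.03 ± 0.66 higher at 12 than at 3 months (adjusted p = 0.00911, limma), and leaving out each of the 14 mice in turn gave 2.64 to 3.81. With the slide row as a block it was 1.48 (adjusted p = 0.431). On the brighter probe it was 0.29 ± 0.26 (adjusted p = 0.598). The other member was Eif4a1, described below.

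Of the beta subunit Eif2s2, which with the gamma subunit helps recognise the start codon, the 2 probes differed at 12 months. A_51_P470724 read -0.81, -0.31 and -0.19 in TgproNGF#3 and -1.33, -1.33 and -0.74 in WT mice, a difference of 0.70 ± 0.23 (unadjusted p = 0.0185, adjusted p = 0.549, limma). The groups overlapped, since WT replicate 3 of row 2 lay among the TgproNGF#3 mice, and within row 2 the difference was 0.31. The other probe, A_55_P2089655, differed by -0.03 ± 0.12 at that age. At 1 and 3 months both probes lay between -0.18 and 0.16 with adjusted p-values of 0.517 or more.

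The gamma subunit, which binds GTP and the tRNA, is made from near-identical copies on the X and Y chromosomes. The probe of Eif2s3x named A_55_P2093764 read -0.98, -0.88, -0.86 and -1.35 in TgproNGF#3 and -1.87, -1.81, -1.50 and -1.73 in WT mice at 1 month. The groups did not overlap, and the difference of 0.71 ± 0.18 was the highest of any member at this age (unadjusted p = 0.00244, adjusted p = 1, limma). With the same-numbered mice as pairs, by a replicate block in limma, its unadjusted p was 0.00373 and its adjusted p 0.736. It was higher within both slide rows, by 0.91 in row 1 and 0.51 in row 2, although at this age each genotype also lay in array columns of its own. At 3 months the probe differed by -0.50 ± 0.42 with overlapping groups, and TgproNGF#3 replicate 4 was lowest at -2.92. At 12 months it differed by 0.27 ± 0.13.

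The other Eif2s3x probe, A_51_P305532, was far lower in the females at 12 months than in the males of the other ages, and sex, age and slide change together in that comparison. It read 0.11 to 1.64 in the 8 males at 1 month, -0.54 to 0.27 in the 8 males at 3 months and -3.58 to -3.08 in the 6 females at 12 months, while A_55_P2093764 had medians of -1.42, -1.14 and -1.28. The Eif2s3y probe read 0.53 to 2.13 and 0.08 to 0.97 in the males and was not well above background in any female. TgproNGF#3 replicate 3 at 1 month had the highest value on both A_51_P305532 (1.64) and the Eif2s3y probe (2.13). Whether A_51_P305532 reads the Y copy was not tested, so its genotype differences of 0.42, 0.42 and 0.09 at the 3 ages in order are uncertain as to the gene. That at 3 months came from groups that did not overlap (unadjusted p = 0.0195, adjusted p = 0.109, limma). Eif2s3y itself differed by 0.33 ± 0.30 at 1 and 0.26 ± 0.19 at 3 months. Without TgproNGF#3 replicate 3 the 1-month differences were 0.10 ± 0.18 on A_51_P305532 and 0.05 ± 0.23 on the Eif2s3y probe.

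**Figure D3:**
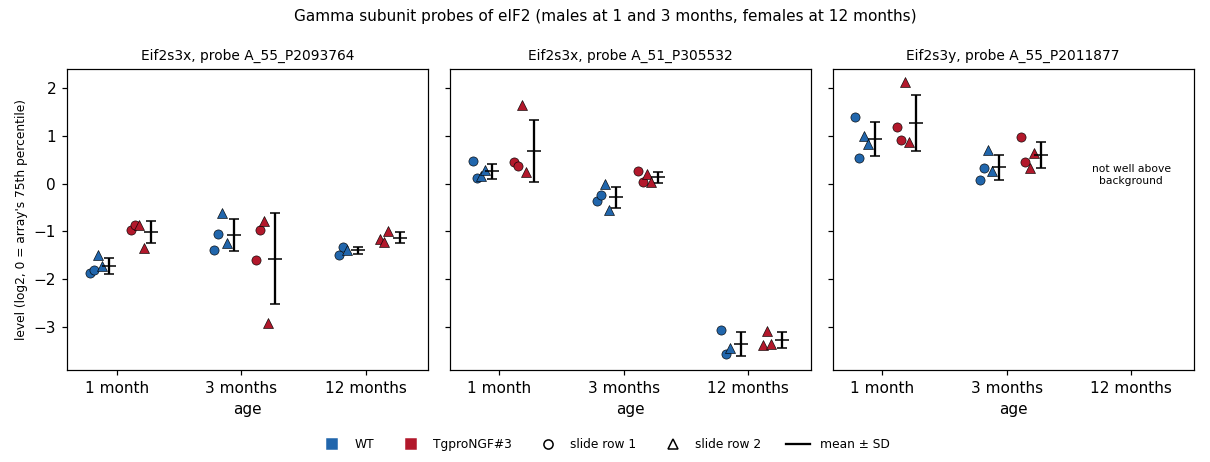
Level of the 3 gamma subunit probes of eIF2 (log2, 0 is the array's 75th percentile) in every mouse at each age, with WT in blue, TgproNGF#3 in red, symbols for the slide row and bars for the mean ± SD. In the middle panel the 6 females at 12 months lie between -3.58 and -3.08 and all males at -0.54 or above, and the Eif2s3y probe has no value in females.

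Among the kinases of eIF2 alpha, Eif2ak2 (PKR, activated by double-stranded RNA and induced by interferon) was higher at 3 months. It read -3.44, -4.21, -3.31 and -3.95 in TgproNGF#3 and -4.70, -4.45, -4.64 and -4.78 in WT mice, which did not overlap. The difference was 0.92 ± 0.21 (adjusted p = 0.0305, limma, exact permutation p = 0.0286), just under the 2-fold threshold. It was 0.75 within slide row 1 and 1.08 within row 2, and with the row as a block the adjusted p was 0.054. At 1 month it was 0.14 ± 0.21 and at 12 months 0.62 ± 0.29 (adjusted p = 0.554), where WT replicate 3, at -2.88, was again among the TgproNGF#3 mice and the difference within row 2 was 0.04.

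The other kinases did not pass an adjusted p of 0.05. Eif2ak1 (HRI, the heme-regulated kinase) differed by 0.52 ± 0.24, 0.46 ± 0.16 and 0.35 ± 0.21 at 1, 3 and 12 months, with unadjusted p-values of 0.0539, 0.0161 and 0.141 and overlapping groups each time. Eif2ak3 (PERK, the kinase of the unfolded protein response) differed by -0.43 ± 0.17 at 3 months (unadjusted p = 0.0353) and by 0.39 ± 0.15 at 12 months (unadjusted p = 0.0367, groups not overlapping), and by -0.12 ± 0.24 at 1 month. Eif2ak4 (GCN2, the amino acid sensor) differed by -0.03 ± 0.26, -0.23 ± 0.19 and 0.12 ± 0.13.

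The 6 probes of eIF2B, the exchange factor that reloads eIF2 with GTP, ranged from -0.15 to 0.39 at 3 months and from -0.05 to 0.16 at 12 months, and none had an adjusted p under 0.05. Eif2a and Eif2d, which bring tRNA to the ribosome outside the eIF2 complex despite their names, ranged from 0.17 to 0.36 at 3 months over 3 probes. The groups did not overlap for both Eif2d probes at that age, chosen here after their values were seen, with differences of 0.26 and 0.36 (adjusted p = 0.227 and 0.117, limma).

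eIF3, the largest of the factors, had 19 probes of 14 genes. At 3 months they ranged from -0.85 to 0.45 with a median of 0.02, and 1 of 19 had an unadjusted p under 0.05, beside 27.2% of all probes. The lowest, A_52_P654965, is named for Eif3j2 by the array annotation of the 1- and 12-month files and for Eif3j1, a near-identical copy, by that of the 3-month files, so its gene is uncertain. It differed by -0.45 ± 0.24, -0.85 ± 0.42 and 0.12 ± 0.14 at 1, 3 and 12 months, with overlapping groups, while the other Eif3j1 probe differed by 0.06, 0.02 and 0.58. Eif3k, a peripheral subunit, had the lowest member value at 12 months on A_55_P2016387, which read 2.99, 3.03 and 3.09 in TgproNGF#3 and 3.79, 3.80 and 3.01 in WT mice. The difference was -0.50 ± 0.23 (adjusted p = 0.549, limma), again with WT replicate 3 beside the TgproNGF#3 mice, and it was 0.02 within row 2. The other Eif3k probes differed by -0.28 and -0.16, and within row 2 by -0.02 and -0.07.

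The eIF4 group held the remaining probes that passed a threshold. Eif4a1, the helicase that unwinds mRNA leaders, read 3.45, 3.46, 3.30 and 3.32 in TgproNGF#3 and 4.09, 3.76, 4.16 and 3.92 in WT mice at 3 months. All TgproNGF#3 values were lower, and the difference was -0.60 ± 0.14 (adjusted p = 0.0304, limma, exact permutation p = 0.0286). It was -0.47 within slide row 1 and -0.74 within row 2, and with the row as a block the adjusted p was 0.0536. At 1 and 12 months it differed by 0.01 ± 0.16 and 0.06 ± 0.13. The genotype difference was 0.66 ± 0.19 higher at 12 than at 3 months (adjusted p = 0.0454), which passed the threshold in 1 of the 14 fits that left out a mouse, the one without WT replicate 2 of 3 months, and had an adjusted p of 0.0502 to 0.117 in the others.

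Eif4a3l1, a copy of the exon junction helicase gene Eif4a3, read 1.44, 1.21, 1.23 and 1.46 in TgproNGF#3 and 0.84, 0.86, 0.77 and 0.74 in WT mice at 3 months. The difference was 0.53 ± 0.13 (adjusted p = 0.0342, limma), with groups apart. It was 0.48 within slide row 1 and 0.59 within row 2, and with the row as a block the adjusted p was 0.0572. The probe of Eif4a3 itself differed by 0.21 ± 0.16 at that age, and since the 2 genes are near-identical copies the source of the Eif4a3l1 signal is uncertain. At 1 and 12 months Eif4a3l1 differed by 0.05 ± 0.16 and 0.11 ± 0.15.

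Eif4b, a cofactor of the initiation helicases Eif4a1 and Eif4a2 and a target of the mTOR pathway, was called at 3 months on 1 of its 3 probes. A_52_P390114 read -5.70, -4.31, -4.70 and -5.90 in TgproNGF#3 and -3.57, -4.32, -3.53 and -4.08 in WT mice. The groups overlapped at TgproNGF#3 replicate 2 and WT replicate 2, and the difference was -1.28 ± 0.36 (unadjusted p = 0.00591, adjusted p = 0.0592, limma, exact permutation p = 0.0571). The brighter Eif4b probes differed by 0.33 ± 0.19 (A_51_P151271) and -0.05 ± 0.14 (A_55_P1974554). At 12 months the 3 probes differed by -0.40, 0.08 and -0.05, and at 1 month by -0.14, 0.38 and 0.00.

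The 3 probes at an adjusted p under 0.05 at 3 months kept differences of similar size when each mouse was left out in turn, while their adjusted p-values moved across the threshold. Eif2ak2 differed by 0.78 to 1.08 with an adjusted p of 0.0158 to 0.102 (limma), Eif4a1 by -0.68 to -0.54 with 0.0358 to 0.0925, and Eif4a3l1 by 0.49 to 0.57 with 0.0352 to 0.125. No member passed without TgproNGF#3 replicate 1, or without WT replicate 1, 3 or 4.

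**Figure D4:**
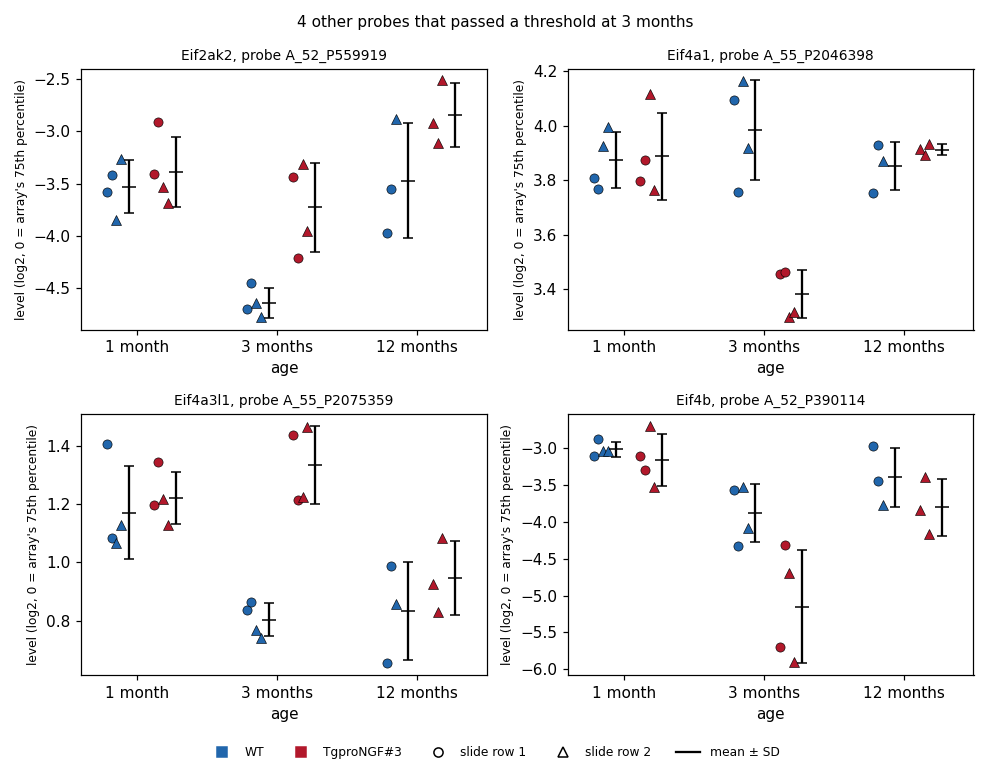
Level (log2, 0 is the array's 75th percentile) of the Eif2ak2, Eif4a1, Eif4a3l1 and Eif4b probes that passed a threshold at 3 months, in every mouse at each age, with WT in blue, TgproNGF#3 in red, symbols for the slide row and bars for the mean ± SD. At 3 months TgproNGF#3 mice lie above all WT mice for Eif2ak2 and Eif4a3l1 and below them for Eif4a1, and the groups overlap for Eif4b.

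Eif4g3, a scaffold protein of the cap-binding complex, had the next lowest value of any member at 12 months on A_55_P2034360, at -0.42 ± 0.25 (adjusted p = 0.593, limma) and 0.09 within row 2. That probe differed by -0.37 at 1 and -0.53 at 3 months, where 3 of the 4 TgproNGF#3 arrays had a value. The brighter Eif4g3 probe differed by 0.07, 0.38 and -0.13 at the 3 ages in order. The 5 eIF5 probes, of the GTPase activator of eIF2 and of proteins of subunit joining and elongation, ranged from -0.29 to 0.06 at 3 and from 0.10 to 0.33 at 12 months. Both probes of Eif6 differed by 0.25 at 3 months.

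Members with an unadjusted p under 0.05 at 12 months numbered 5 (6.67%), all higher in TgproNGF#3 mice, where 3.11% of all probes were higher and 5.94% lower at that p, 9.05% in all, and none had an adjusted p under 0.549. They were the Eif2s1, Eif2s2 and Eif2ak3 probes above and, named after their values were seen, Eif3j1 (0.58 ± 0.16, groups apart) and the cap-binding Eif4e3 (0.44 ± 0.18, groups apart). The balance depended on the scaling. With the authors' values 4 members were higher and 1 lower (2.89% and 9.9% of all probes). With median scaling 6 were higher and 0 lower (6.07% and 2.41%).

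Probes of one gene were then set side by side for the 18 genes with 2 or more tested probes. Their fold changes lay apart by a median of 0.11 at 1 month, 0.26 at 3 months and 0.15 at 12 months. At 3 months 6 genes had probes more than 0.5 apart and 2 genes more than 1 apart, Eif4b (1.61) and Eif2s1 (1.30). The others of the 6 were Eif2s3x (0.92), Eif4g3 (0.92), Eif4a2 (0.89) and Eif4e2 (0.52), and in all 6 the dimmest or dimmer probe had the lowest fold change. Over all 18 genes the dimmest probe had the lowest fold change in 13 at 3 months, 9 at 1 month and 10 at 12 months. In no gene did every tested probe have an unadjusted p under 0.05 at any age, though 9 genes had at least 1 such probe at 3 months. Eif4a2, a helicase abundant in neurons, fell short of an adjusted p of 0.05 with -0.94 ± 0.29 on A_52_P344376 (adjusted p = 0.0769, limma, groups apart) and read -0.05 ± 0.14 on its brighter probe.

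**Figure D5:**
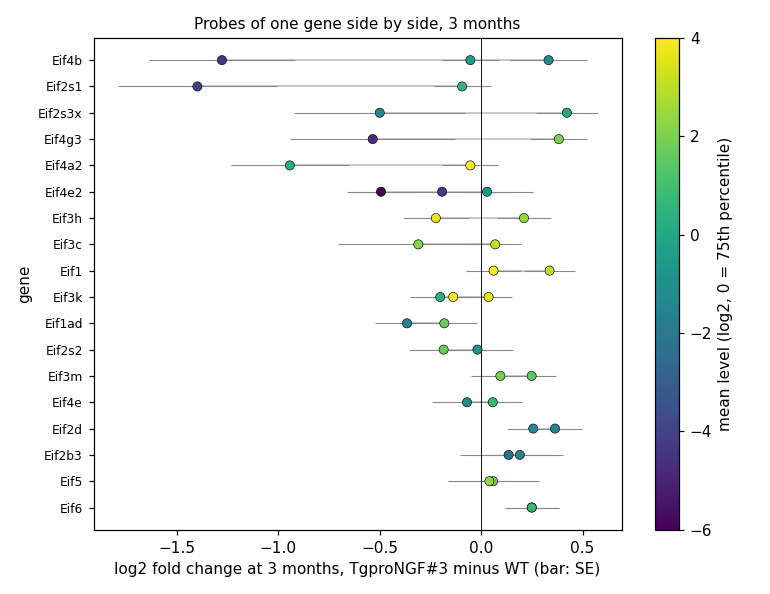
Log2 fold change of TgproNGF#3 over WT at 3 months (horizontal axis, bars are SE) for each tested probe of the 18 initiation factor genes (vertical axis) with 2 or more, coloured by the probe's mean level. The genes are ordered by how far their probes lie apart, from 1.61 for Eif4b to values under 0.1 for Eif2b3, Eif5 and Eif6.

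The members called at 3 months were dim ones. The 7 members with a mean level under -3 had a median log2 fold change of -0.49 and held both called probes, and the 14989 probes of the array in that range had a median of -0.21 and held 1457 of its called probes. The 13 members from -3 to -1 had a median of 0.14 and the 26 from -1 to 1 one of -0.04, beside -0.09 and -0.04 over all probes, with no called member and 500 and 229 called probes of the array. The 30 members above 1 had a median of 0.07 and no called probe, and the 5490 probes above 1 had -0.07 and 86 called probes. The medians followed no steady order over these ranges.

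The related genes of translation were a list of 53 genes with 79 probes, and 78 probes were tested at each age. No probe of the list was called at 1 or 12 months or had an adjusted p under 0.05 there. At 3 months 1 of the 78 was called higher and 6 lower, beside 0.643% and 6.12% of all probes, and the median over the list was -0.09 beside -0.12. Among the eIF2 phosphatases, Atf4, its targets and other regulators of eIF2, 13 of 16 probes had negative values, as did 62.7% of all probes of the array, and 2 were called. Both were of the other regulators, Dnajc3 (an inhibitor of the kinases PKR and PERK) at -1.25 ± 0.28 and Impact (an inhibitor of GCN2 activation) at -1.18 ± 0.25, with adjusted p-values of 0.0274 and 0.0234 by limma. The other Impact probe, A_51_P483220, differed by -0.06 ± 0.15 at that age. Neither Atf4 nor its targets Atf5, Ddit3, Trib3, Chac1, Asns and Sesn2 were called at any age.

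In the cap-binding and mTOR list, Larp1 (a repressor of ribosomal protein mRNAs) was called higher at 3 months on A_51_P418908, by 1.17 ± 0.30 (adjusted p = 0.0434, limma) with overlapping groups, while its brighter probe A_55_P1960456 differed by -0.0022 ± 0.21. Rps6kb1 (the S6 kinase) was lower on A_52_P170486 (-1.17 ± 0.29, adjusted p = 0.0414) and on A_55_P2019083 (-0.89 ± 0.21, adjusted p = 0.0351), while its probe A_51_P175205 differed by 0.40 ± 0.13. Paip1 (a partner of poly(A)-binding protein) was called lower on A_51_P470989 at -1.39 ± 0.43 (adjusted p = 0.075), and its other probe differed by -0.24 ± 0.19. Among other initiation factors, Bzw1 on A_52_P48689 (-1.25 ± 0.35) and Metap1 on A_52_P120925 (-1.35 ± 0.39) were called lower, with adjusted p-values of 0.0552 and 0.0618, and the mitochondrial factor Mtif2 was lower, with a difference of -0.67 ± 0.17 (adjusted p = 0.0391). The other Metap1 probe differed by 0.02 ± 0.13, and the other Bzw1 probes by -0.67 ± 0.27 and -0.52 ± 0.17. None of the 16 probes of elongation and termination factors was called or had an adjusted p under 0.05.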

How the data were processed

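Hippocampal RNA of 22 mice was hybridised to 1-colour Agilent arrays of 62976 spots, 1 mouse per array. The intensity values deposited by the authors are Agilent Feature Extraction 10.7.3.1 output (processed signal, already background-corrected, with flags per spot). The authors also deposited a table of log2 values for 28929 probes, scaled to a common 75th percentile, which holds 73 of the 78 members and served as an alternative. The 2 sets of values differed by an SD of at most 0.00522 over probes once each array was centred, so its scale and centring are known.

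After removal of control spots, dim spots (not well above background) and feature outliers, log2 signals were centred on each array's 75th percentile, and spots of a probe were averaged. Probes with at least 2 values per group entered limma 3.58.1 (R 4.3.3), separately at each age, two-sided, with empirical Bayes moderation. The age comparison was a contrast in 1 fit of 22 arrays. The fits were tested on simulated data.

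Probes were named through RefSeq mRNA accessions and the GRCm38.p6 gene table, since the scanner files name no gene and their headers give build mm9. No coordinates of the probes were used. For 5 members the accession differed between the array annotation of the 3-month files and that of the others, and for 1 the gene did. The members, gene lists and tests were chosen with earlier results of these data known.

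Every probe of eIF2 and its kinases was named, with any member called or at an adjusted p under 0.05 at an age or for the age difference, the 2 highest and 2 lowest at each age, and all probes of those genes. Alternatives covered spot filters, scaling, background correction, the authors' table, a common fit, blocks and each mouse left out.

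Same-numbered mice deviated together at 1 month (correlations of 0.191 to 0.511 over probes). Both mice of each pair shared a slide row there, so pairing and row cannot be told apart. Such mice did not deviate together at 3 months (-0.356 to -0.0234) or 12 months (-0.316 to 0.0503). The main fits held no pairing at any age, and a replicate block was tried as an alternative. Replicates are separate mice. The number of arrays limits the precision.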

Additional observations from a re-analysis of the deposited data

Results flagged for a closer look

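The genotype difference of the dimmer Eif2s1 probe (A_55_P2184811) was 3.03 higher at 12 than at 3 months in a test of that difference (limma, adjusted p = 0.00911), and that of Eif4a1 was 0.66 higher (adjusted p = 0.0454). Age, sex and slide change together in this contrast, and at 12 months the slide row nearly follows genotype. With the row as a block the values were 1.48 (adjusted p = 0.431) and 0.64 (adjusted p = 0.356).

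On the Eif2s3x probe A_51_P305532, replicate 3 of TgproNGF#3 at 1 month (1.64) stood apart from the other 3 mice of its group (0.25 to 0.45), with a gap of 0.859 of the group's range. This was 1 of 87 groups of 4 examined over the named probes, and chance alone gives about 1 in 20.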

How the results depend on the processing

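The dimmer Eif2s1 probe (A_55_P2184811) was called at 3 months under every alternative tried. At 12 months its call was lost with the slide row as a block (0.0797, which also left 0 members called), within row 2 (0.0797, chosen after seeing the data), and when single mice were left out (1.24 to 2.42, with 0 to 1 members called and 0 to 1 at an adjusted p under 0.05). Its 12-minus-3-month difference was 1.48 with the row block and 2.64 to 3.81 when each mouse was left out. Members that differed between 12 and 3 months numbered 4 with the percentile over all spots or the authors' values, 1 with median scaling, quantile normalization, the 14 arrays of these ages alone or the replicate block, 0 with the row block, and 1 to 2 when each mouse was left out. The brighter Eif2s1 probe was never called, and its near-zero value changed sign at 1 month with dim spots kept (-0.0612), the percentile over all spots (-0.0646), the authors' values (-0.0622) and single mice left out (-0.14 to 0.16), and at 3 months with dim spots kept (0.041) and the percentile over all spots (0.0362).

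At 3 months 4 members were called with dim spots kept (7% of all probes), 1 with normexp correction (3.67%), 19 with no fold change threshold (27.2%) and 2 to 4 when each mouse was left out. With no fold change threshold 1 passed at 1 month and 5 at 12 months. Members at an adjusted p under 0.05 at 3 months numbered 10 of 76 with the percentile over all spots (11.5% of all probes passed), 11 of 73 with the authors' values (12.1%), 7 in 1 fit of all arrays, 0 with the replicate or row block, and 0 to 4 when each mouse was left out. The replicate block changed no other call. Eif2ak2 passed 2-fold at 3 months with dim spots kept (1.05), the percentile over all spots (1.05) and quantile normalization (1.03), and Eif4b lost its call with normexp (-0.86). With the row block Eif3k (A_55_P2016387) and Eif4g3 (A_55_P2034360) changed sign at 12 months (0.0206 and 0.0906). The percentile over all spots moved the 3-month median of all probes from -0.12 to 0.00, and median scaling the 12-month one from 0.01 to 0.15. Over the array the 12-month calls were 106 higher and 338 lower, against 218 and 177 with quantile normalization. Signal over background left Eif4e1b untested at every age, and both members called at 3 months were among the 7 of 76 with a mean level under -3. The causes were not tested.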
